A study of Mus musculus with 11 samples.

Results

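The genes described here are 53 mouse genes of cell division, comprising cyclin-dependent kinases (CDKs) and their phosphatases, the other mitotic kinases, the proteins of centromere and kinetochore, the spindle and cytokinesis proteins, and the condensin subunits. They were chosen by gene symbol, synonyms included, among the 16593 gene symbols of the array, and the rule uses symbols only. Earlier results of these data were known when the genes were chosen. A named probe was found for 44 of the 53 genes. Of these, 33 gave a signal that could be tested, among 8659 tested genes in all.

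RNA came from C2C12 cells, an established line of mouse myoblasts that stop dividing, fuse and form myotubes when serum is reduced. Day 6 cultures had been kept in differentiation medium with horse serum for 6 days, and Day 0 cultures were proliferating in growth medium with fetal bovine serum. Each day had 5 samples, which the design text of the series gives as independent experiments, and both days shared the same cell line with no other treatment. For Day 0 replicate 5 there were 2 arrays, averaged to 1 sample, and 11 MouseRef-8 v2.0 BeadChips thus stood for 10 samples. All cells of a culture were measured together, so fewer dividing cells and less of an mRNA in each cell cannot be told apart.

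Entry into mitosis is driven by CDK1 bound to a cyclin, after CDC25 phosphatases have removed its inhibitory phosphates. Condensin then compacts the chromosomes, the kinetochore built on the CENP-A chromatin of each centromere binds spindle microtubules, and the spindle checkpoint holds the anaphase-promoting complex in check until all chromosomes are attached. Many of these genes are transcribed mainly in G2 and mitosis and are low in cells that have left the cycle, as myoblasts do when they become myotubes.

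Signal levels of the arrays were similar on both days. Median raw signals were 57.2 to 64.3 on the Day 6 arrays and 56.6 to 62.7 on the Day 0 arrays, and 44.7 to 48.7% of probes on the Day 6 arrays and 45.9 to 47.4% on the Day 0 arrays had a detection p under 0.05. Of the 8 myotube markers, 7 had a named probe and all 7 were called higher at Day 6, with a median log2 change of 5.25. Their normalized signals, summed on the scale before log2, were 29885 to 35863 at Day 6, against 531 to 6845 at Day 0. Among the 6 myoblast markers, Des, Itga7 and Myod1 were called higher at Day 6, Vcam1 was not called, Myf5 was undetected in every sample and Cdh15 was not analysed here. Day 0 replicate 5 stood apart within its day: its Myog signal was 8.64 on the log2 scale, against 4.45, 4.63, 5.67 and 5.75 in the other Day 0 samples, and it had the highest Day 0 signal of 6 of the 7 tested myotube markers, all 6 below every Day 6 sample. Values without this sample are therefore given below. For other cell types, the endothelial markers Pecam1 and Cdh5, the adipocyte markers Adipoq, Plin1 and Fabp4 and the neural markers Rbfox3, Tubb3 and Gfap were undetected in every sample. Summed in the same way, normalized signals of the 4 endothelial markers were 117 to 135 at Day 6 and 108 to 129 at Day 0. For the 4 neural markers with a probe the sums were 144 to 150.1 at Day 6 and 147 to 156 at Day 0. The other 2 endothelial markers, Kdr (log2 change 0.09, adjusted p = 0.674, limma) and Tek (log2 change 0.08, adjusted p = 0.698, limma), were detected in 5 and 3 Day 6 samples and in 4 and 1 Day 0 samples, and neither was called. Of the 5 macrophage markers, the 3 with a named probe summed to 156 to 191 in Day 6 samples, against 186 to 267 in Day 0 samples. Cd68 and Csf1r were not analysed here. For the adipocyte markers the sums were 449 to 964 in Day 6 samples, against 234 to 468 in Day 0 samples, and for the osteoblast markers 391 to 478 in Day 6 samples, against 175 to 229 in Day 0 samples. In these lists Ptprc, Adgre1, Cebpa, Ibsp, Sp7 and the neural marker Mbp did not pass the detection filter. The osteoblast gene Bglap, however, was called higher (log2 change 2.73), while Alpl of the same list was not called (-0.12). Higher as well was Lpl of the adipocyte list (1.08), and Cd14 of the macrophage list was called lower (-1.04). The part of other cells in the results was not tested.

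Of the 33 tested mitotic genes, 32 were called lower at Day 6 and none higher, and Cdk2 was not called. The call is an adjusted p under 0.05 from limma over all 8659 genes, of which 24.2% were called lower (2098) and 21.1% higher (1825). The median log2 change of the 33 genes, Day 6 minus Day 0, was -2.34, against -0.03 over all tested genes. A decrease of at least 4-fold was called for 25 of the 33 genes, a size that 2.02% of all tested genes reached. That count depends on the background correction: it was 13 of 33 without background correction and 12 of 33 with a normexp correction that ignores the negative controls. In the same 32 genes every Day 6 value lay below every Day 0 value, as was the case for 17.2% of all tested genes. To enter the test a probe needed detection in 3 or more of the 5 samples of either day, a filter that 29 of the 33 genes met on both days (28 of them called lower). Cdc25c, Pttg1, Cenph and Cep55 met it only at Day 0, and such genes could enter only by being higher there.

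**Figure D1:**
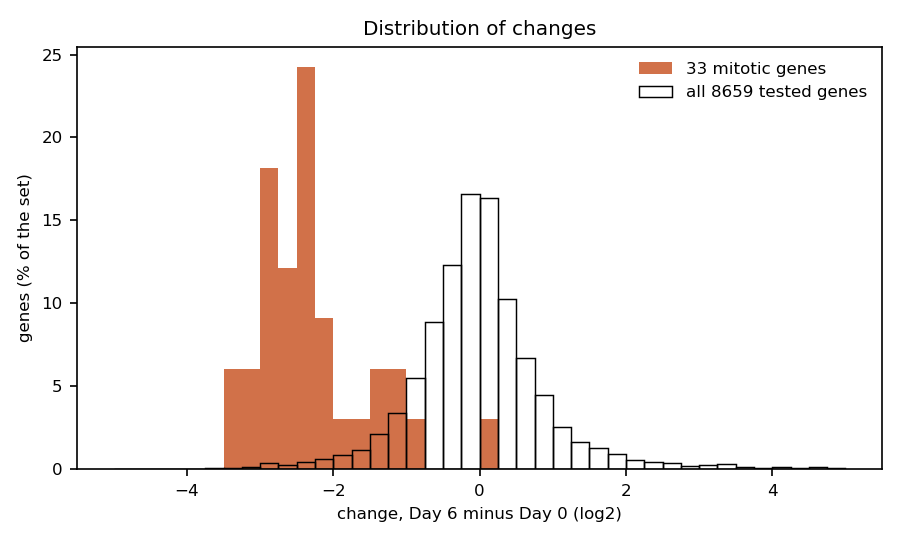
Share of genes (y axis, % of each set) by log2 change (x axis, Day 6 minus Day 0, 0.25 per bar, changes between -5 and 5 shown) for the 33 tested mitotic genes (filled) and all 8659 tested genes (outlined). The mitotic genes have a median of -2.34 and only Cdk2 lies above 0, while all tested genes have a median of -0.03.

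The remaining 20 genes gave no comparison. For 9 of them (Cdk4, Aurkb, Cenpf, Cenpl, Racgap1, Smc4, Ncapg, Ckap2 and Mki67) no probe carried the symbol in the annotation used, and they were not analysed here. The probes of the other 11 did not pass the detection filter. Cks1b, Cks2, Nek2, Bub1, Fbxo5, Cenpe, Nuf2, Hmmr, Ect2 and Smc2 were undetected in all 10 samples, and Ttk was detected in 2 Day 0 samples and in 0 Day 6 samples. A probe at background is no measure of its mRNA here, since 5 of the tested genes also had a probe that was undetected in all 10 samples beside the one that gave their signal.

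Before the values of single genes, the promoters of these genes are shown, because the genes moved together and a sequence feature of their promoters is known. Genes of G2 and mitosis often carry near their start a cell cycle genes homology region (CHR), through which the MuvB complexes repress them in resting cells and activate them in dividing ones, and upstream of it CCAAT boxes, the sites of the factor NF-Y. In the RefSeq promoters of the GRCm38.p6 build (250 bases before to 50 after each annotated start), 45 of the 53 genes matched, with 51 promoters. On both strands, the CHR letters, taken as TTTGAA or in their other common form as TTCGAA, were found in 66.7% of these promoters, against 13.8% of the 9139 promoters of tested genes and 19.2% of all 32851 promoters. CCAAT was found in 74.5%, against 38% of the promoters of tested genes and 37.4% of all. Both together were in 58.8% of the mitotic gene promoters, 5.60% of those of tested genes and 7.52% of all. For E2F, the letters searched were TTCCCGC as the first form, with TTCGCGC as the next form, then TTGCCGC as another of them and TTGGCGC as the last, and 1 or more of these were in 25.5%, against 15.7% and 9.57%. In the 31 promoters of the 26 genes called lower the shares were 64.5% for CHR, 64.5% for CCAAT, 51.6% for both together and 19.4% for E2F. Matches of different motifs overlapped in 3 cases, and some genes have several overlapping promoters. A match is a description of letters and not a shown binding site.

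Among the promoters, 4 are printed here up to the last base before the annotated start, to set 3 genes that fell strongly beside the 1 that was not called. Capitals mark the CHR letters and the CCAAT letters (ATTGG where the box lies on the other strand). Each runs from base -150 to base -1 before the start, 5′ to 3′ on the gene's strand. Cdk1 (log2 change -2.95, chr10:69352913-69353062, minus strand) and Cdc20 (-3.21, chr4:118437344-118437493, minus strand) carried both kinds of letters, as did Espl1 (-2.87, chr15:102296143-102296292, plus strand). Cdk2 (0.12, chr10:128705052-128705201, minus strand) had a CCAAT box and no CHR letters in its whole 300 base window. E2F letters were found in both kinases, with 3 matches in Cdk2 and 2 in Cdk1.
Cdk1: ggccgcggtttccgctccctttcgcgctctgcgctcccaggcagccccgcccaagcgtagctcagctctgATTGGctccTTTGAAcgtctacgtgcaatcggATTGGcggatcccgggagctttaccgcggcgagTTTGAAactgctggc
Cdc20: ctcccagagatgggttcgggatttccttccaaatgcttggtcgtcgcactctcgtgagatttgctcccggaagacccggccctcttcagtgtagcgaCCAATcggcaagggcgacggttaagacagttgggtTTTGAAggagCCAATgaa
Espl1: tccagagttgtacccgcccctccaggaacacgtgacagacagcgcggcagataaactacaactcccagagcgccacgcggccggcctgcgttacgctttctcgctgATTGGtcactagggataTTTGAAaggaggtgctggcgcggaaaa
Cdk2: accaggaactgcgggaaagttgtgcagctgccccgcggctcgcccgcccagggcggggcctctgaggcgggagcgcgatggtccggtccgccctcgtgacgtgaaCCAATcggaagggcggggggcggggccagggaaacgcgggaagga
The CHR letters began 71 and 15 bases before the start in Cdk1, 18 bases before it in Cdc20 and 27 bases before it in Espl1. Genes with and without such letters stood at both ends of the order of changes. Bub3, with the smallest decrease of those called lower, had CHR letters and 2 CCAAT boxes, and Birc5, with the largest, had none of the 3 motifs in this window. Of the 27 tested genes with a promoter sequence, 6 had no match at all, namely Birc5, Cenpp, Mad2l1, Melk, Nusap1 and Pttg1.

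**Figure D2:**
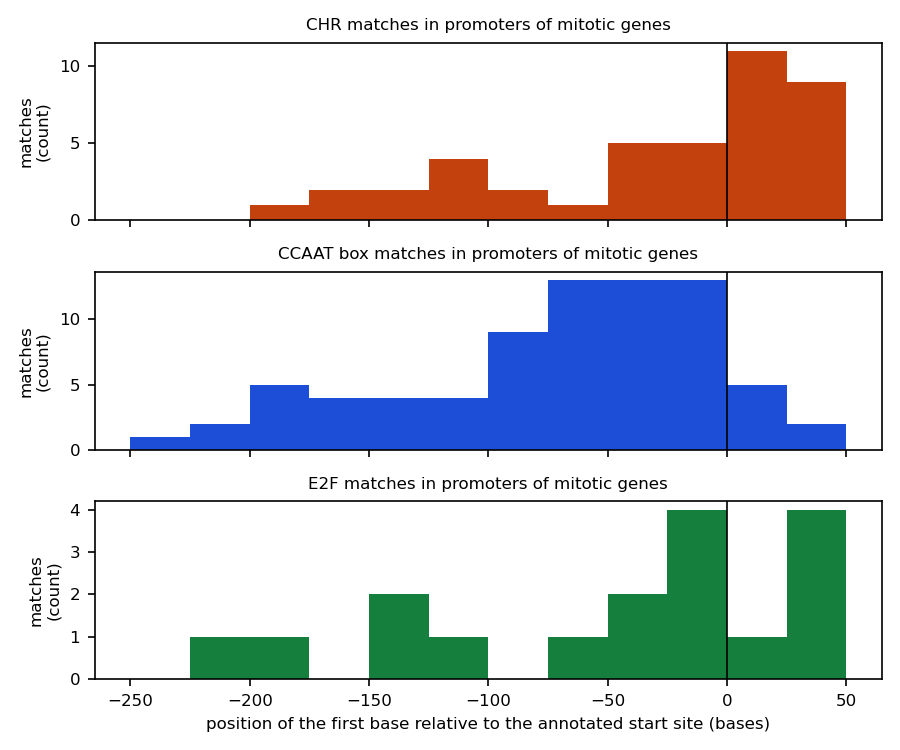
Number of motif matches (y axis) by the position of their first base relative to the annotated start (x axis, bases, 25 per bar, negative before the start) in the 51 promoters of 45 mitotic genes, for CHR (42 matches), CCAAT (75) and E2F (17). Of the CHR matches 30 lay within 50 bases of the start on either side, and of the CCAAT matches 48 lay in the 100 bases before it.

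The CDKs separated into a gene that fell and a gene that did not pass the test. Cdk1 encodes the kinase that drives entry into mitosis. In Day 6 replicates 1 to 5 its log2 signals were 7.58, 7.65, 6.92, 6.92 and 6.88, and in Day 0 replicates 1 to 5 they were 10.22, 10.30, 9.99, 10.03 and 10.15. The days did not overlap, and Cdk1 was 7.73-fold lower at Day 6 (log2 change -2.95 ± 0.18, SE, adjusted p = 5.66e-08). Cdk2 encodes the kinase that acts with cyclins E and A at the start of and during DNA replication. Signals of Cdk2 were 10.66, 10.72, 10.75, 10.54 and 10.46 on the log2 scale in Day 6 replicates 1 to 5 and 10.40, 10.43, 10.44, 10.51 and 10.76 in Day 0 replicates 1 to 5. These ranges overlap, with Day 0 replicate 5 the highest sample of its day, and the log2 change was 0.12 ± 0.13 (SE), adjusted p = 0.485. All 4 Cdk2 probes that passed the filter lay between 0.01 and 0.27 and none was called, although with arrays scaled to equal medians the change of Cdk2 was -0.04. For Cdk1 a dimmer probe, detected in 1 Day 6 sample and 4 Day 0 samples, changed by -0.35 and was not called (adjusted p = 0.0606, limma over all probes).

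Both tested CDC25 phosphatases were lower at Day 6. Cdc25c acts on CDK1 at entry into mitosis. The 5 Day 6 samples gave log2 signals of 4.88, 4.92, 4.61, 4.53 and 4.33, while the 5 Day 0 samples gave 7.29, 7.43, 7.58, 6.85 and 6.57. The lowest Day 0 sample lay well above the highest Day 6 sample (log2 change -2.49 ± 0.20, SE, adjusted p = 5.21e-07), and the probe was detected in 2 of 5 Day 6 samples. Cdc25b is the family member known to start the activation of CDK1 at the centrosome. For Cdc25b the log2 signals were 5.96, 5.99, 4.78, 5.68 and 5.07 at Day 6 (replicates 1 to 5) and 6.60, 6.88, 7.53, 6.46 and 7.15 at Day 0. The days did not overlap here either, although the lowest Day 0 sample was only 0.46 above the highest Day 6 sample, and the log2 change was -1.43 ± 0.27 (SE), adjusted p = 0.00066.

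All 4 tested kinases of mitosis and proliferation were lower at Day 6. Plk1, which acts in centrosome maturation, spindle assembly and cytokinesis, had the second largest decrease of all 33 genes. Plk1 had log2 signals of 7.76, 7.80, 6.98, 7.14 and 6.72 in Day 6 replicates 1 to 5, against 10.90, 10.85, 10.15, 10.58 and 10.57 in Day 0 replicates 1 to 5. Its log2 change was -3.33 ± 0.23 (SE), adjusted p = 1.12e-07, which is 10.04-fold lower at Day 6. Aurka, the centrosomal kinase that activates PLK1 and helps to build the spindle, was next among the kinases. In Day 6 replicates 1 to 5 its log2 signals were 7.70, 7.50, 6.69, 6.93 and 6.44, and in Day 0 replicates 1 to 5 they were 10.39, 10.42, 9.65, 9.98 and 10.17. No sample of either day reached the other day's range (log2 change -3.07 ± 0.24, SE, adjusted p = 3.87e-07). Pbk, a mitotic kinase also known as TOPK, had a log2 change of -2.72 ± 0.32 (SE), adjusted p = 1.31e-05 (log2 signals 6.61 to 8.32 at Day 6 and 9.77 to 10.29 at Day 0). Melk, a kinase of proliferating progenitor and tumour cells, had one of -2.29 ± 0.32 (SE), adjusted p = 7.12e-05, with log2 signals of 5.54, 5.65, 5.19, 5.09 and 4.60 in Day 6 replicates 1 to 5 and 8.18, 8.11, 7.26, 7.69 and 6.29 in Day 0 replicates 1 to 5. Its lowest Day 0 value was that of replicate 5, and without this sample its change was -2.60. A second Melk probe, detected in 2 Day 6 samples, changed less (-1.35). A further one was detected in 0 Day 6 samples and gives no measured change.

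The chromosomal passenger complex, which corrects faulty kinetochore attachments and acts in cytokinesis, fell in all 3 of its tested subunits. Birc5 encodes survivin, which brings the complex to the centromere, and fell the most of all 33 genes. Signals of Birc5 were 7.80, 8.04, 6.42, 7.12 and 6.98 on the log2 scale in Day 6 replicates 1 to 5 and 10.78, 10.68, 10.57, 10.71 and 10.37 in Day 0 replicates 1 to 5. Its log2 change was -3.35 ± 0.26 (SE), adjusted p = 3.37e-07, or 10.18-fold lower at Day 6, and its 3 probes that passed the filter gave -3.59 to -3.35. Cdca8 encodes borealin, a partner of survivin. The 5 Day 6 samples gave log2 signals of 7.09, 7.34, 6.89, 6.59 and 6.21, while the 5 Day 0 samples gave 9.76, 10.08, 9.30, 9.73 and 9.26. Both ranges were well apart (log2 change -2.80 ± 0.22, SE, adjusted p = 4.32e-07). Incenp, the scaffold that binds and activates the Aurora B kinase, had a log2 change of -2.76 ± 0.23 (SE), adjusted p = 6.22e-07 (log2 signals 5.66 to 6.76 at Day 6 and 8.62 to 9.16 at Day 0). Aurkb itself was not analysed here.

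All 3 tested spindle checkpoint genes were lower at Day 6. Bub1b encodes BUBR1, a part of the complex that inhibits the anaphase-promoting complex. For Bub1b the log2 signals were 5.07, 5.73, 4.59, 4.79 and 4.31 at Day 6 (replicates 1 to 5) and 8.003, 7.80, 7.68, 7.61 and 7.01 at Day 0. Day 0 replicate 5 was the lowest of its day and still above all Day 6 samples, and the log2 change was -2.72 ± 0.25 (SE), adjusted p = 1.67e-06. Mad2l1 encodes MAD2, which binds CDC20 in that same complex. Mad2l1 had log2 signals of 7.45, 7.24, 6.82, 6.86 and 6.66 in Day 6 replicates 1 to 5, against 9.43, 9.58, 9.17, 9.45 and 8.98 in Day 0 replicates 1 to 5. Its days did not overlap (log2 change -2.31 ± 0.18, SE, adjusted p = 3.66e-07). Bub3, a binding partner of BUB1 and BUBR1, had the smallest called decrease. In Day 6 replicates 1 to 5 its log2 signals were 6.96, 7.05, 6.94, 7.07 and 6.95, and in Day 0 replicates 1 to 5 they were 7.93, 8.21, 7.54, 7.76 and 7.85. Although the days did not overlap, it was only 1.82-fold lower at Day 6 (log2 change -0.86 ± 0.14, SE, adjusted p = 0.000265).

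The genes that start anaphase were lower at Day 6. Cdc20 encodes the activator that turns the anaphase-promoting complex onto securin and cyclin B. Signals of Cdc20 were 8.41, 8.54, 7.31, 7.06 and 6.99 on the log2 scale in Day 6 replicates 1 to 5 and 11.14, 11.04, 10.74, 10.94 and 10.54 in Day 0 replicates 1 to 5. Day 6 replicates 1 and 2 stood above the other 3 Day 6 samples, and the lowest Day 0 sample was 1.998 log2 units above the highest of them. The log2 change was -3.21 ± 0.30 (SE), adjusted p = 1.51e-06, and its 4 probes gave -3.49 to -2.87. Espl1 encodes separase, the protease that cuts cohesin. The 5 Day 6 samples gave log2 signals of 5.02, 5.50, 4.68, 4.73 and 4.81, while the 5 Day 0 samples gave 7.97, 7.56, 7.52, 7.44 and 8.60. Day 0 replicate 5 was the highest of its day, and without it the change of -2.87 ± 0.23 (SE), adjusted p = 4.80e-07 became -2.67. Pttg1 encodes securin, the inhibitor of separase. Its probe was undetected on every Day 6 array, with log2 signals of 4.57, 4.39, 4.17, 4.26 and 4.32, and detected in all 5 Day 0 samples, with 5.71, 5.34, 5.51, 5.61 and 5.55. Set against the lowest detectable signal, Pttg1 was at least 1.81-fold lower at Day 6 (adjusted p = 8.10e-06, limma), and the measured means were 4.34 at Day 6 and 5.54 at Day 0.

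Centromere genes fell in all 5 cases tested. Cenpa encodes the histone H3 variant that marks the centromere. For Cenpa the log2 signals were 10.61, 10.45, 8.89, 8.71 and 8.62 at Day 6 (replicates 1 to 5) and 12.53, 12.78, 12.18, 12.34 and 11.98 at Day 0. It had the widest spread of the 33 genes at Day 6 (SD 0.99), with replicates 1 and 2 far above the other 3 samples, and all of them below the lowest Day 0 sample (log2 change -2.91 ± 0.37, SE, adjusted p = 3.15e-05). Cenpn encodes a reader of CENP-A chromatin. Cenpn had log2 signals of 5.32, 5.52, 4.97, 5.27 and 5.11 in Day 6 replicates 1 to 5, against 8.05, 7.95, 8.03, 7.63 and 7.46 in Day 0 replicates 1 to 5. The days were apart (log2 change -2.58 ± 0.16, SE, adjusted p = 6.61e-08). Of the other subunits of the constitutive centromere network, Cenpk had a log2 change of -2.33 ± 0.15 (SE), adjusted p = 9.93e-08 (log2 signals 4.42 to 5.12 at Day 6 and 6.98 to 7.32 at Day 0). That of Cenpp was -1.48 ± 0.23 (SE), adjusted p = 0.000138 (log2 signals 5.16 to 5.89 at Day 6 and 6.21 to 7.43 at Day 0). Cenph was undetected on every Day 6 array with log2 signals of 4.30 to 4.42, against 5.70 to 6.18 at Day 0, and was at least 2.45-fold lower (adjusted p = 6.26e-07, limma), with measured means of 4.36 at Day 6 and 5.98 at Day 0.

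The NDC80 complex is the part of the kinetochore that holds the microtubule, and 3 of its 4 subunits were tested. Ndc80, which contacts the microtubule, was spread over 1.73 log2 units at Day 6. In Day 6 replicates 1 to 5 its log2 signals were 6.29, 6.08, 4.98, 4.96 and 4.56, and in Day 0 replicates 1 to 5 they were 8.25, 7.76, 8.24, 7.91 and 7.55. The 2 highest Day 6 samples were replicates 1 and 2, and the lowest Day 0 sample was 1.26 units above the higher of them (log2 change -2.57 ± 0.31, SE, adjusted p = 1.56e-05). Spc25, in the part of the complex that faces the inner kinetochore, fell to a like extent. Signals of Spc25 were 6.04, 6.32, 5.37, 6.01 and 5.17 on the log2 scale in Day 6 replicates 1 to 5 and 8.29, 8.01, 8.39, 8.11 and 7.78 in Day 0 replicates 1 to 5. The days were apart (log2 change -2.34 ± 0.22, SE, adjusted p = 1.82e-06), and a second probe gave -2.36. Its partner Spc24 had log2 signals of 5.17 to 5.79 at Day 6 and 6.18 to 7.26 at Day 0. Its log2 change was -1.21 ± 0.20 (SE), adjusted p = 0.00025, which without Day 0 replicate 5 was -1.07. A second probe was detected in 0 Day 6 samples and gives no measured change.

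**Figure D3:**
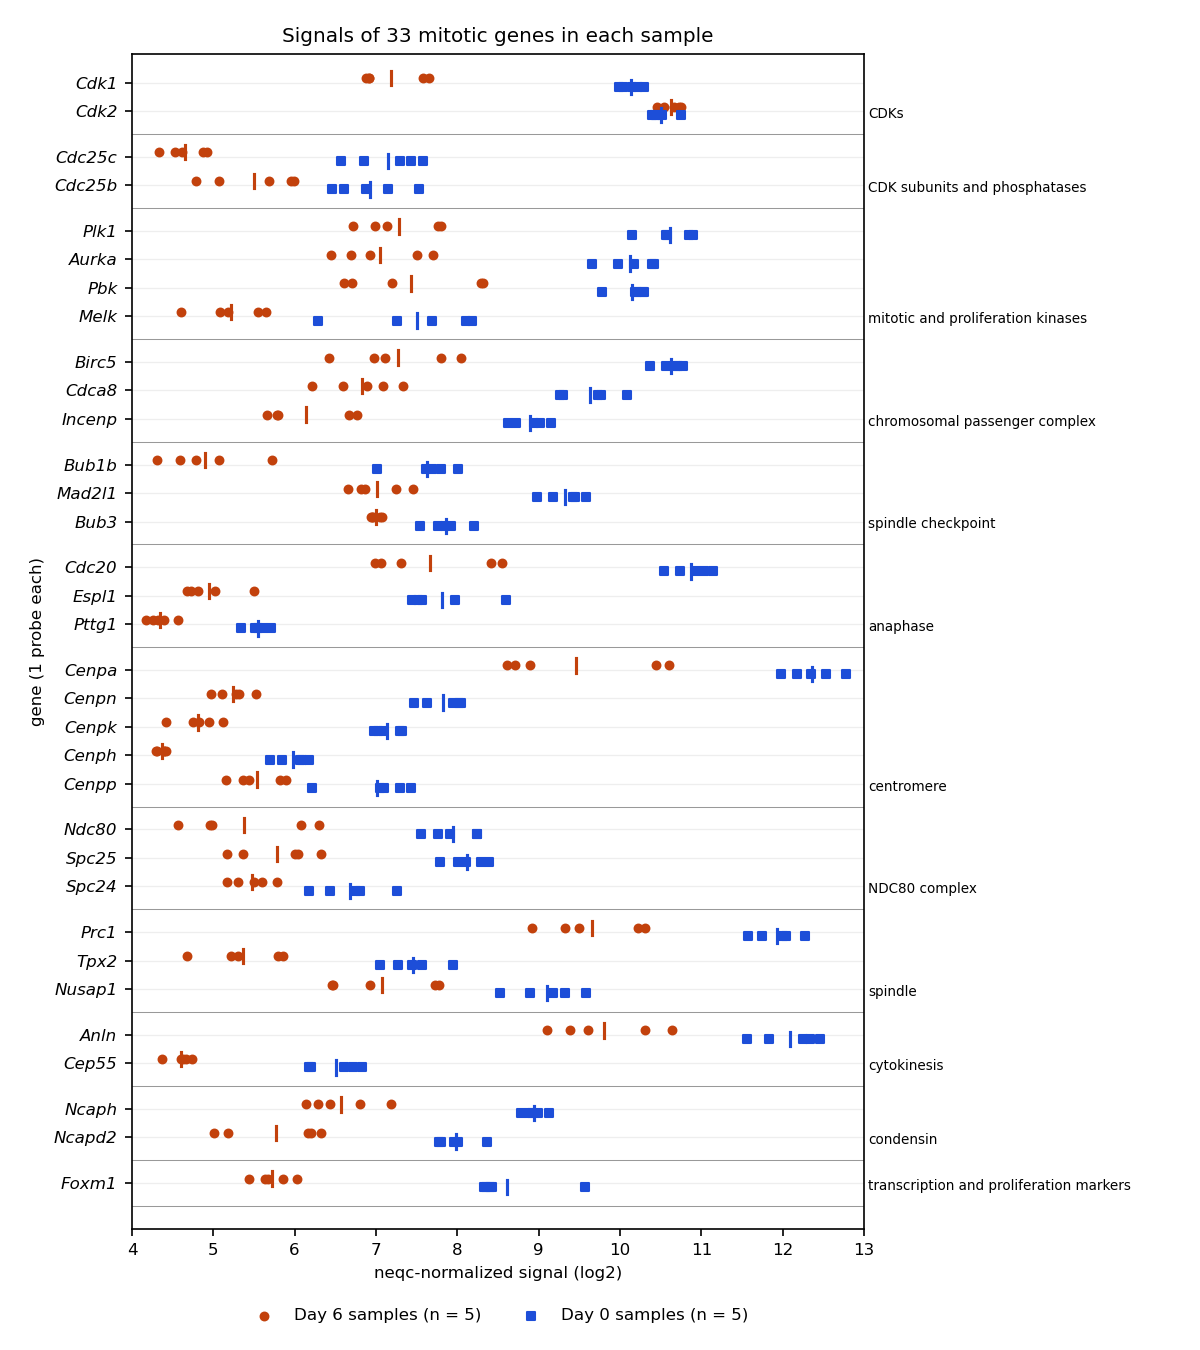
Signals of the 33 tested genes (x axis, normalized log2 signal of 1 probe per gene) by gene and role (y axis), with each Day 6 sample as an orange circle, each Day 0 sample as a blue square and the mean of each day as a vertical line (n = 5 each). The days are apart in every gene except Cdk2, and signals of different genes are not on 1 scale because probes differ.

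The 3 tested spindle genes were 4.07- to 4.85-fold lower at Day 6. Prc1 encodes the protein that bundles antiparallel microtubules of the central spindle. The 5 Day 6 samples gave log2 signals of 10.22, 10.30, 9.49, 9.33 and 8.91, while the 5 Day 0 samples gave 12.28, 12.005, 11.75, 12.05 and 11.57. The lowest Day 0 sample was 1.27 log2 units above the highest Day 6 sample (log2 change -2.28 ± 0.25, SE, adjusted p = 8.41e-06). Tpx2 activates Aurora A and nucleates microtubules around chromosomes. For Tpx2 the log2 signals were 5.85, 5.80, 5.21, 5.30 and 4.68 at Day 6 (replicates 1 to 5) and 7.56, 7.95, 7.27, 7.45 and 7.05 at Day 0. Its days were also apart (log2 change -2.09 ± 0.23, SE, adjusted p = 8.36e-06), with the probe detected in 4 of 5 Day 6 samples. Nusap1, which stabilizes spindle microtubules near chromosomes, had a log2 change of -2.03 ± 0.29 (SE), adjusted p = 7.42e-05 (log2 signals 6.46 to 7.77 at Day 6 and 8.52 to 9.59 at Day 0).

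Both tested cytokinesis genes were lower at Day 6. Anln encodes anillin, a scaffold of the contractile ring. Anln had log2 signals of 10.31, 10.64, 9.39, 9.60 and 9.10 in Day 6 replicates 1 to 5, against 12.33, 12.46, 11.83, 12.25 and 11.56 in Day 0 replicates 1 to 5. Day 6 replicates 1 and 2 were again the highest of their day, and the log2 change was -2.28 ± 0.28 (SE), adjusted p = 2.10e-05. Cep55 is needed at the midbody for the final cut between the daughter cells. In Day 6 replicates 1 to 5 its log2 signals were 4.66, 4.74, 4.60, 4.63 and 4.37, and in Day 0 replicates 1 to 5 they were 6.82, 6.72, 6.18, 6.61 and 6.20. Only 2 of 5 Day 6 samples were detected, and the log2 change was -1.91 ± 0.16 (SE), adjusted p = 7.46e-07.

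Condensin I was represented by its subunits Ncaph and Ncapd2. Ncaph encodes the kleisin that closes the condensin ring. Signals of Ncaph were 6.80, 7.19, 6.44, 6.14 and 6.29 on the log2 scale in Day 6 replicates 1 to 5 and 9.13, 8.88, 8.91, 8.78 and 8.995 in Day 0 replicates 1 to 5. Day 6 and Day 0 samples were at least 1.59 units apart (log2 change -2.37 ± 0.19, SE, adjusted p = 4.58e-07). Ncapd2 encodes a HEAT repeat subunit of the same complex. The 5 Day 6 samples gave log2 signals of 6.20, 6.32, 5.01, 6.17 and 5.18, while the 5 Day 0 samples gave 7.78, 7.80, 7.96, 8.01 and 8.36. Day 6 replicates 3 and 5 lay below the other 3 samples of their day, and the log2 change was -2.21 ± 0.26 (SE), adjusted p = 1.27e-05. Of its other 2 probes, 1 was detected only at Day 0 and 1 in no sample.

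Foxm1, a transcription factor that activates many G2 and mitosis genes together with MuvB and MYBL2, was the only tested gene of its group. For Foxm1 the log2 signals were 5.85, 6.03, 5.44, 5.63 and 5.67 at Day 6 (replicates 1 to 5) and 8.36, 8.42, 8.33, 8.40 and 9.57 at Day 0. Its days did not overlap (log2 change -2.89 ± 0.23, SE, adjusted p = 4.05e-07). Day 0 replicate 5 was 1.19 above the mean of the other 4 Day 0 samples, and without it the change was -2.65.

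**Figure D4:**
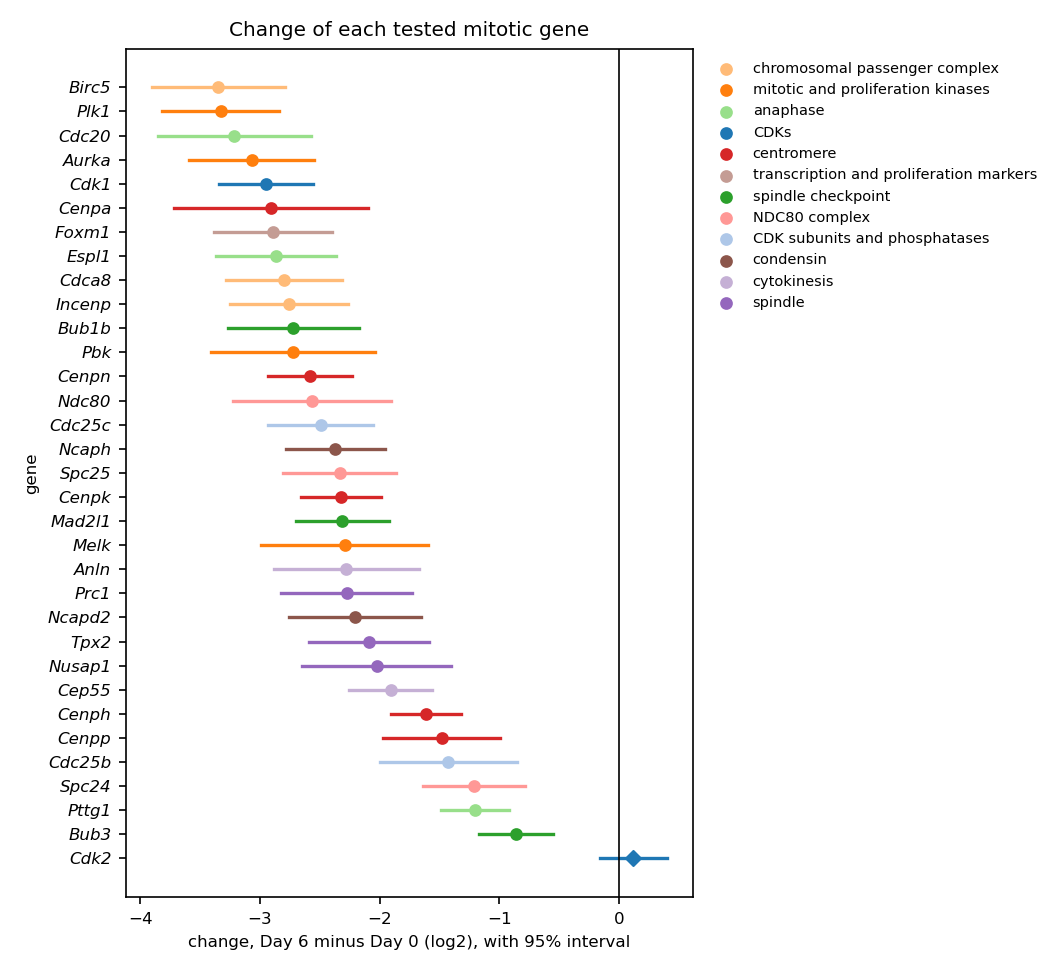
Log2 change of each tested gene (x axis, Day 6 minus Day 0, point with 95% interval from limma, n = 5 each) in the order of the changes (y axis), coloured by role. All intervals except that of Cdk2 (-0.16 to 0.40, diamond) lie below 0, from Birc5 at -3.35 to Bub3 at -0.86.

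Set side by side, changes within a complex or family covered a range. The log2 changes of Cdk1 and Cdk2 differed by -3.07, those of Bub1b and Bub3 by -1.86 and those of Mad2l1 and Bub3 by -1.45. For Cdc25c against Cdc25b the difference was -1.06, and Cdc25c passed the filter only through Day 0. Ndc80 and Spc24 differed by -1.35, Spc25 and Spc24 by -1.12, Bub1b and Mad2l1 by -0.41 and Ndc80 and Spc25 by -0.23. These pairs were chosen after their values were seen, so the differences are a description with no test. Since a dim probe understates a change, a difference between 2 genes and one between 2 probes cannot be told apart here.

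Probes of the same gene could be compared in 12 of the 33 genes, since 21 had only 1 probe past the filter. Within the 12 genes the calls of the probes were the same except in Cdk1, while the sizes of the changes varied. Among all 51 probes of the 33 genes that passed the filter, 46 were called lower when each probe was tested separately, against 23.8% of the 12753 probes of the array. The other 5 were the 4 probes of Cdk2 and the dim probe of Cdk1. Among the probes called lower, 5 were detected in 0 Day 6 samples (of Cenph, Melk, Ncapd2, Pttg1 and Spc24) and give only a bound on the size. In the 10 genes with more than 1 probe detected on both days, changes differed most in Cdk1 (by 2.60) and next in Melk (by 0.94), and least in Spc25 (by 0.03).

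Day 6 samples were not alike in these genes. Relative to the mean of all 10 samples, the median of the 33 genes was -0.82, -0.63, -1.43, -1.46 and -1.70 in Day 6 replicates 1 to 5, against 1.39, 1.25, 1.13, 1.16 and 0.93 in Day 0 replicates 1 to 5. Day 6 replicate 2 had the highest Day 6 signal in 22 of the 33 genes and replicate 1 in 9. At the other end, Day 6 replicate 5 had the lowest in 22 and replicate 3 in 9. In 30 of the 33 genes both replicates 1 and 2 were above the other 3 Day 6 samples. The median SD of the 33 genes was 0.44 within Day 6 and 0.30 within Day 0, while over all tested genes it was 0.23 within Day 6 and 0.31 within Day 0. In the same Day 6 samples the myotube markers had medians of 0.11, 0.31, 0.04, -0.14 and -0.05 from their Day 6 mean in replicates 1 to 5, and their part in the spread was not tested. Leaving out any 1 Day 6 sample left 32 of the 33 genes called lower, with a median log2 change between -2.48 and -2.30.

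**Figure D5:**
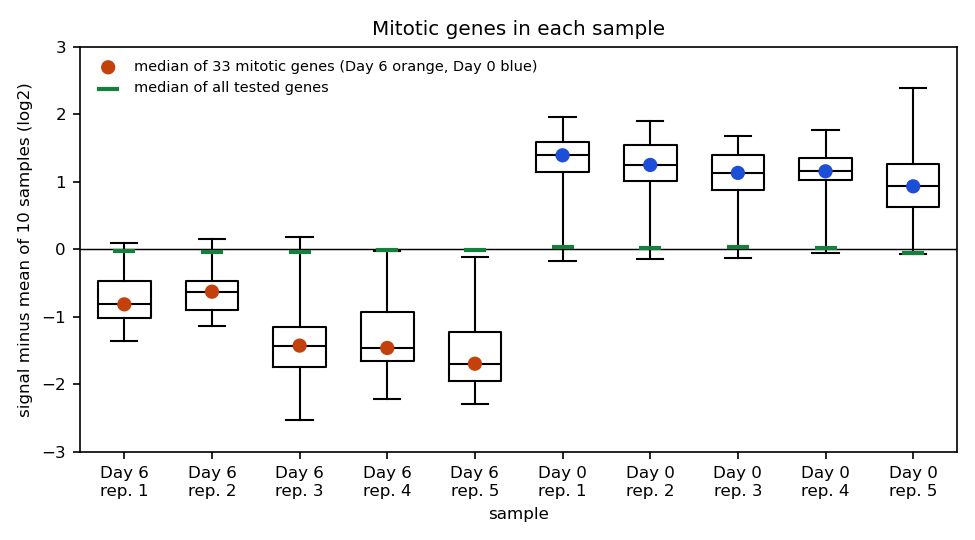
Signal of the 33 mitotic genes relative to the mean of all 10 samples (y axis, log2) in each sample (x axis), as boxes from the first to the third quartile with whiskers to the lowest and highest gene, a dot at the median and a green dash at the median of all tested genes. Medians of the mitotic genes lie between -1.70 and -0.63 in the Day 6 samples and between 0.93 and 1.39 in the Day 0 samples, with all tested genes near 0.

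Day 0 replicate 5, the sample with the higher myotube markers, had the lowest Day 0 signal in 18 of the 33 genes, and in all 18 it was still above every Day 6 sample. Compared with the mean of the other 4 Day 0 samples, 22 genes were lower in it, with a median difference of -0.39 over the 33 genes and -0.05 over all tested genes. Foxm1 (1.19), Espl1 (0.98) and Spc24 (0.71) were among the genes higher in it than in the mean of the others. Without this sample 32 of the 33 genes were again called lower, with a median log2 change of -2.42. The sample descriptions also carry a code, E1 to E4, whose meaning is not stated and under which samples of both days fall. Day 0 replicates 1 and 2 share E1, and Day 6 replicates 3 and 4 share E3. Day 6 replicates 1 and 2, the higher ones in most of these genes, carry E1 and E2, and replicate 5 carries E4. That split of the Day 6 samples thus runs along the code, and a part of the code in it was not tested. Within these codes the median log2 difference of the 33 genes was -2.11 in E1, -1.86 in E2, -2.55 in E3 and -2.62 in E4. In this order 32, 32, 32 and 33 genes were lower at Day 6. These differences rest on few samples: E2 sets Day 6 replicate 2 against Day 0 replicate 3, and E4 sets Day 6 replicate 5 against Day 0 replicate 5. In 23 of the 33 genes the log2 difference within E2 lay above those within the other codes. Cdk2 was among them, with a positive difference within E2.

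Other genes of mitosis were tested from 8 further lists holding 124 genes, of which 85 could be tested. Here 58 were called lower, 3 higher and 24 not called, with a median log2 change of -0.82. The shares were 68.2% lower and 3.53% higher, against 24.2% lower and 21.1% higher over all tested genes, whose median was -0.03. These lists were chosen with results of these data known. Some of their genes met the detection filter only at Day 0 and could enter only by being higher there. Of these, Ccna2, Ccnf, Pkmyt1, Dsn1, Nsl1, Pmf1, Cdca5, Esco2, Anapc15, Ube2c and Ube2s were called lower, and Cdk12 and Haus4 were not called. Their calls are included in the counts and shares.

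Among regulators of CDK1, 5 of 7 tested genes were lower (71.4%, against 24.2% of all tested genes). Gtse1, a microtubule binding protein of G2 and mitosis, changed by -2.96 (adjusted p = 3.64e-07), Cdc25a, a CDC25 phosphatase that acts from the G1/S transition on, by -1.76 (adjusted p = 0.000226), and Ccnf, a ubiquitin ligase subunit, by -1.53 (adjusted p = 9.41e-05) (all adjusted p from limma). The Ccnf probe was detected in 1 of 5 Day 6 samples and met the detection filter only at Day 0. Ensa, which once phosphorylated inhibits a phosphatase that opposes CDK1, moved against its list (log2 change 0.88, adjusted p = 0.00215, limma). Of the other CDKs, 4 of 8 were lower (50%, against 24.2% of all tested genes) and none higher, with a median of -0.37: Cdk6 by -0.97 (adjusted p = 0.000703), Cdk14 by -0.82 (adjusted p = 0.0008) and Cdk13 by -0.71 (adjusted p = 0.00957).

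Further kinetochore and centromere genes were lower in 15 of 17 cases (88.2%, against 24.2% of all tested genes) and higher in none. Spdl1, which brings dynein to the kinetochore, changed by -2.98 (adjusted p = 1.02e-06), Cenpi of the centromere network by -2.77 (adjusted p = 1.09e-07) and Ska2 of the microtubule binding SKA complex by -2.17 (adjusted p = 7.87e-07). Condensin II and chromosome condensation genes were lower in all 6 tested cases (100%, against 24.2% of all tested genes). Among them were the chromokinesin Kif4 at -2.85 (adjusted p = 1.34e-06, limma) and topoisomerase Top2a at -2.83 (adjusted p = 1.19e-06, limma). The condensin II subunit Ncapg2 was at -2.07 (adjusted p = 2.91e-06, limma).

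Cohesin and its regulators were lower in 6 of 11 cases (54.5%, against 24.2% of all tested genes), with a median of -0.37. Sgo1, the protector of centromeric cohesin, changed by -2.77 (adjusted p = 1.82e-06), Cdca5, which encodes sororin and holds cohesin on replicated DNA, by -2.22 (adjusted p = 7.11e-08), and the acetyltransferase Esco2 by -1.76 (adjusted p = 7.08e-06). The probes of Cdca5 and Esco2 were each detected in 2 of 5 Day 6 samples and met the detection filter only at Day 0. The core ring subunits Smc1a (-0.37) and Smc3 (-0.52) changed less. In the anaphase-promoting complex 5 of 14 tested genes were lower (35.7%) and 2 higher (14.3%), with a median of -0.19. These shares lie near those of all tested genes (24.2% lower, 21.1% higher). Of the genes called lower, Anapc15, Ube2c and Ube2s were undetected on every Day 6 array and met the detection filter only at Day 0. Set against the lowest detectable signal, Anapc15 was at least 1.87-fold lower. The coactivator Fzr1, known as CDH1 and active in G1 and resting cells, changed by -0.87 (adjusted p = 0.00022). Anapc2 (0.78, adjusted p = 0.00558) and Anapc7 (0.60, adjusted p = 0.0156), both core subunits, moved against the list, though with arrays scaled to equal medians 1 partner gene in all was called higher instead of 3.

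Spindle assembly and centrosome genes were lower in 11 of 15 cases (73.3%, against 24.2% of all tested genes). They were led by the kinesins Kif23 (-2.75, adjusted p = 1.19e-06, limma) and Kif11 (-2.43, adjusted p = 8.36e-06, limma). Spag5, a spindle and kinetochore protein, followed (-2.34, adjusted p = 1.76e-05, limma). In the MuvB and DREAM list 6 of 7 tested genes were lower (85.7%, against 24.2% of all tested genes). Of this list, Lin9 and Rbbp4 were not analysed here, and Lin37, Lin52 and Rbl2 did not pass the detection filter. Mybl2, which joins MuvB as an activator in dividing cells, changed by -3.09 (adjusted p = 1.02e-07, limma) and the pocket protein gene Rbl1 by -1.48 (adjusted p = 0.000165, limma). E2f4, a factor of the repressing DREAM complex, changed by -1.08 (adjusted p = 0.00289, limma), and by -0.88 without Day 0 replicate 5.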

How the data were processed

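RNA of 10 C2C12 samples (5 at Day 6, 5 at Day 0) was measured on 11 arrays. The authors extracted the deposited intensity values and detection p-values with GenomeStudio 2011.1, without background subtraction or normalization between arrays. The deposited Z-score of a probe is a score scaled within its array by the authors, and recomputed Z-scores lay within 0.005 of it. Every signal column was mapped to a sample.

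Background correction and quantile normalization of the signals used neqc (limma 3.58.1, R 4.3.3, offset 16), with negative controls inferred from the detection p, followed by log2. The plots were made with Python 3.11.15 and matplotlib 3.10.9. The filter asked for a detection p under 0.05 in 3 or more samples of either day and passed 12753 of 25697 probes. The brightest of these by mean stood for its gene, giving 8659 genes. Probe symbols came from the platform annotation, which gave 1 symbol for 23978 probes and none for 1719. Day 6 was compared with Day 0 by lmFit and eBayes without covariates, with Benjamini-Hochberg adjustment over all tested genes. Differences between 2 genes are descriptions with no test. The number of arrays limits the precision. Where no array of a day detected a probe, the fold is a lower bound, computed against the lowest signal among detected probes of each array or the probe's own, whichever was higher. Only the limma comparison was tested on simulated data, and the steps before it were not.

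The genes, their roles and the partner lists were chosen with earlier results of these data known. Values in every sample are given for the 2 genes with the largest decrease in each role and for every gene not called, and partner genes named are up to 3 called genes of each list with the largest change and those that moved against their list. Bub3, Melk, Smc1a, Smc3 and the pairs were added after their values were seen. The motif windows are the RefSeq promoters of GRCm38.p6. Alternatives used quantile normalized signals with their background, a normexp correction that ignores the controls (offset 50), scaling to equal array medians, or the deposited Z-scores. Others left out the filter on detection, asked for detection in 10 of 10 samples, took 1 array alone for Day 0 replicate 5, or added a block for the replicate number or for E1 to E4. The rest used the probe of largest SD, a robust trend, and fits without each sample or without both E4 samples. Replicate numbers were not taken as pairs, because deviations of same-numbered samples correlated by -0.24 to 0.19.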

Additional observations from a re-analysis of the deposited data

Results flagged for a closer look

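In 2 of the 66 sets of 5 samples (33 genes on 2 days) 1 sample stood far from the other 4 of its day, measured as its gap to the nearest sample over the range of all 5 against a limit of 0.71. Chance alone marks about 1 in 20 such sets. Both cases were Day 0 replicate 5, the sample with the higher myotube markers. The log2 signal of Foxm1 in it was 9.57, against 8.33 to 8.42 in the other Day 0 samples, so that the gap was 0.926 of the range. For Pbk it was 9.77, against 10.18 to 10.29, with a gap of 0.784 of the range. Both genes were called lower at Day 6 with and without this sample.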

How the results depend on the processing

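Under every alternative in which the 33 genes were tested, 32 were called lower and none higher. Without the detection filter 44 genes were tested and 33 called lower, and with detection in all 10 samples 24 were tested and 23 called lower. Of 750 values of single genes under the alternatives, 749 kept their direction and their side of the threshold. The exception was Cdk2, whose change was -0.0392 with equal array medians. The median change of the genes was -1.80 without background correction and -1.71 with normexp without controls, both of which compress low signals. The same settings gave 13 and 12 genes called at least 4-fold lower, against 25 of 33, and over the other settings in which these 33 genes had a log2 change it was 23 to 25 (the Z-scores have no such fold). Leaving out each sample in turn gave medians of -2.48 to -2.29 and 49 to 60 partner genes called lower, with 32 genes called lower each time. With detection in all 10 samples 58 partner genes could be tested and 34 were called lower, and with equal array medians 1 partner gene was called higher. That scaling also gave 2068 genes lower and 1155 higher over all 8659, against 2098 and 1825. A replicate block left 32 genes called lower, a median of -2.34 and 53 partner genes called lower. The block for E1 to E4 also left 32 called lower, and neither block changed another call of the 33 genes. Each day had 5 samples, dim probes understate changes, and an undetected probe gives only a bound.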
